A study of Mus musculus with 8 samples.

Results

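The 10 elastic fibre genes described here were elastin (Eln), the fibrillins Fbn1 and Fbn2, the fibulins Fbln2 and Fbln5, the microfibril-associated proteins Mfap4 and Mfap5, the latent TGF-beta binding proteins Ltbp2 and Ltbp4, and Emilin1. They were taken by symbol from a list drawn up with earlier results of these data known, and make up 10 of the 31053 gene identifiers counted. All 10 reached the minimum level for testing, at least 1 CPM (counts scaled to a common library size) in at least 4 libraries, and were tested among 13813 genes. The transcripts were counted with the QuantSeq 3′ mRNA kit, in which each read marks the 3′ end of a polyadenylated transcript, in RPE (retinal pigment epithelium) eyecups of C57/Bl6 mice at P11, postnatal day 11. There were 4 libraries of wild type mice (Bbs8+/+) and 4 of littermates lacking Bbs8 (Bbs8-/-), a gene annotated as Ttc8 that encodes a subunit of the ciliary BBSome, and no animal was treated. The Bbs8-/- mice lack the gene in every cell and not only in the RPE. An eyecup is what remains of the eye after cornea, lens, retina and optic nerve are discarded, so the RPE was measured together with choroid and sclera. The study compared the genotypes to learn how the RPE develops without Bbs8.

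Elastic fibres give tissue its recoil. Their core is cross-linked elastin, laid down on a scaffold of fibrillin microfibrils, and fibulins, MFAPs, LTBPs and emilins join core and scaffold or help to assemble them. In the back of the eye elastic fibres run in the sclera, around choroidal vessels and in the middle layer of Bruch's membrane, the sheet on which the RPE rests. Fibrillins and LTBPs also hold latent TGF-beta, a growth factor, in the matrix.

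In Bbs8-/- eyecups the elastin core gene, 1 fibrillin and both LTBPs of the list were down-regulated, and the fibulins and MFAPs were not. Eln fell by 0.33, Fbn2 by 0.28, Ltbp4 by 0.59 and Ltbp2 by 0.80 on the log2 scale, so 4 of the 10 genes were lower and 0 were higher at an FDR (p adjusted by the Benjamini-Hochberg method over all tested genes) under 0.05 in the edgeR quasi-likelihood test. Over all tested genes 1.14% were lower and 1.10% were higher by the same rule, and as the list was drawn up with results known, its share is given as a description. The 4 Bbs8-/- values lay below the 4 Bbs8+/+ values, without overlap, for 5 of the 10 genes, these 4 and Emilin1, against 3.76% of all tested genes. Under 18 alternative settings or omissions of 1 library, Eln and Ltbp4 passed in 18, Fbn2 in 9 and Ltbp2 in 8. No member lay above without overlap, against 3.62% of all tested genes. Their median log2 fold change was -0.21, beside -0.0041 over all tested genes. The summed level of the 10 genes was 1922 to 2038 CPM in Bbs8+/+ and 1710 to 1842 CPM in Bbs8-/- libraries. In a bulk sample, fewer cells of a type and less RNA per cell cannot be told apart.

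**Figure D1:**
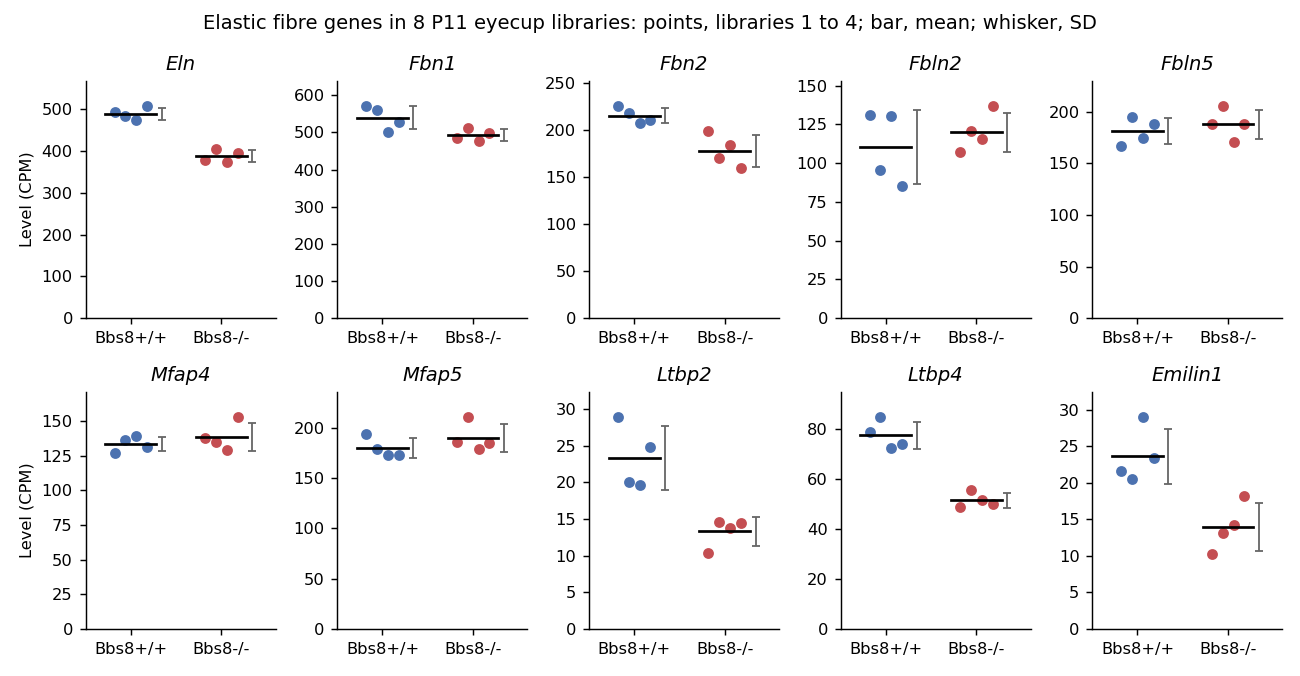
Level of each of the 10 elastic fibre genes in CPM (vertical axes, each from 0) in 4 Bbs8+/+ (blue) and 4 Bbs8-/- (red) libraries, with the mean as a bar and the SD as a whisker. The genotypes are separate for Eln, Fbn2, Ltbp2, Ltbp4 and Emilin1 and overlap for the other 5 genes.

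The checks of the libraries bear on every value below. Total gene counts were 1636725 to 2884983 per library, so that 3 counts, the lowest level read as above 0, correspond to 1.04 to 1.83 CPM. Ttc8 was 14.7 to 21.7 CPM in Bbs8+/+ and 2.30 to 9.72 CPM in Bbs8-/- libraries, without overlap, and the highest Bbs8-/- value was in replicate 1. RPE markers summed to 16504 to 17520 CPM in Bbs8+/+ and 17703 to 18026 in Bbs8-/-, and 0 of 7 were at 0 in every library. Most of this sum was Ttr, with means of 10955 and 11676 CPM. Best1 was near the floor, at 0 to 10 counts a library. Of the 7 log2 fold changes 2 were below 0 and 5 above, and 0 passed. Lens markers, of a tissue that was removed, summed to 54.3 to 66.0 CPM in Bbs8+/+ and 368.8 to 413.1 CPM in Bbs8-/-. Of the 10 lens genes the 6 crystallins passed, and the other 4, Bfsp1, Bfsp2, Mip and Lim2, did not, with log2 fold changes of 0.93, 0.30, 0.30 and 0.40. Photoreceptor markers summed to 387.5 to 431.8 and 262.4 to 330.7 CPM. Surface epithelium markers summed to 11.8 to 18.7 and 0 to 0.61 CPM and chondrocyte markers to 7.69 to 11.2 and 12.4 to 24.9 CPM, neither with overlap. Reads outside genes were 42.1% to 43.4% of unique alignments in Bbs8+/+ and 44.1% to 44.4% in Bbs8-/- libraries, without overlap. The part of these differences in the values below was not tested. Xist and Y-linked transcripts were present in all 8 libraries, and the 4 Y-linked genes summed to 59.1 to 65.0 CPM in Bbs8+/+ and 108.3 to 119.7 CPM in Bbs8-/-. These levels moved with genotype, and sex and genotype cannot be told apart in these libraries. Whether each library holds 1 animal is then not certain, although the methods call each animal a replicate.

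The upstream sequences of Ltbp2 and Ltbp4, the members with the largest fold changes past the threshold, and of Fbln5, an elastin-binding partner of the LTBP4 protein whose level did not pass, are given to show the DNA just before the start of these genes. RefSeq promoter entries on GRCm38.p6 matched 6 of the 10 genes. For each gene the entry farthest upstream is used, of 1 for Ltbp2, 3 for Ltbp4 and 2 for Fbln5. Each stretch is the part of it before both its RefSeq start and the annotated gene start, 5′ to 3′ on the minus strand, and capitals mark the matches found. For Ltbp2 this is chr12:84876533-84876741, for Ltbp4 chr7:27337693-27337862, and for Fbln5 chr12:101819120-101819369.
Ltbp2: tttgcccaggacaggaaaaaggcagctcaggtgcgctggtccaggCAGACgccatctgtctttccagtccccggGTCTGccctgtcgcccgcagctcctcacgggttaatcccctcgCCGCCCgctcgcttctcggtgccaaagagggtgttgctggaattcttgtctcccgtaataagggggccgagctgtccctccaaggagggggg
Ltbp4: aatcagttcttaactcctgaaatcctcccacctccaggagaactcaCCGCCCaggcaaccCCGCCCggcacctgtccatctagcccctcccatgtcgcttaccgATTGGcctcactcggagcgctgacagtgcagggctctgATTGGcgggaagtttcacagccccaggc
Fbln5: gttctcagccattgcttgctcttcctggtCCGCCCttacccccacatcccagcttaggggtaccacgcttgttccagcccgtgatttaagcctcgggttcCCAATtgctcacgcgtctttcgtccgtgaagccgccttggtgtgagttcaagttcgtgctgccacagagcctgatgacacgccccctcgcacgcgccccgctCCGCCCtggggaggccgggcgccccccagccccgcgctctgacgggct

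Of 5 short motifs searched on both strands, the Ltbp2 stretch held 1 SP1 GC box (GGGCGG) and 2 Smad boxes (CAGAC), the core letters bound by the Smad factors of TGF-beta signalling. The Ltbp4 stretch held 2 GC boxes and 2 CCAAT boxes, and the Fbln5 stretch held 2 GC boxes and 1 CCAAT box. Over the full 250 bases before the start, the entries used here held 2 GC boxes for Ltbp2, 3 for Ltbp4 and 2 for Fbln5. Other entries of these genes differed over the same length. The others of Ltbp4 held 5 and 7 GC boxes and no CCAAT box, and the other of Fbln5 held 2 Smad boxes and no GC box. Such letters are common. A GC box was found in 32.7%, a Smad box in 42.2% and a CCAAT box in 33.8% of the 250 bases before the start of 32851 RefSeq promoters. The TATA box (TATAAA, in 12.4% of promoters) and the AP-1 site (TGACTCA, in 4.46%) were not in these 3 windows. The GC content of the stretches was 63.2% for Ltbp2, 60.6% for Ltbp4 and 65.2% for Fbln5.

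Eln encodes tropoelastin, the soluble building block of the elastic core, and spans 134702593 to 134747323 on the minus strand of chromosome 5 (mm10), with up to 37 exons. It was 494.6, 483.2, 473.4 and 507.0 CPM in Bbs8+/+ replicates 1 to 4 and 378.4, 405.8, 374.4 and 396.1 CPM in Bbs8-/- replicates 1 to 4. The lowest Bbs8+/+ library was well above the highest Bbs8-/- library. The means were 489.5 ± 14.5 and 388.7 ± 14.8 CPM (SD, n = 4 each), 20.6% lower in Bbs8-/-, with a log2 fold change of -0.33 (SE 0.061, edgeR FDR 4.71e-05). The spread between libraries, 2.96% of the mean in Bbs8+/+, was hardly above the 2.90% that counting alone gives, and the call held under all 18 alternative settings and omissions of 1 library.

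The fibrillins form the microfibrils on which elastin is deposited. Fbn1, the fibrillin of the mature microfibril and the gene mutated in Marfan syndrome, lies on chromosome 2 (125300594 to 125507993, minus strand). Fbn1 was 570.1, 559.6, 501.5 and 529.4 CPM in Bbs8+/+ and 484.1, 512.0, 477.7 and 497.6 CPM in Bbs8-/- libraries, so that Bbs8-/- replicate 2 lay above Bbs8+/+ replicate 3. Its log2 fold change was -0.13 (95% interval -0.25 to -0.017) and did not pass (edgeR FDR 0.29).

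Fbn2, the fibrillin made mainly in development, was 225.3, 218.2, 208.2 and 210.8 CPM in Bbs8+/+ and 198.6, 170.0, 183.7 and 159.5 CPM in Bbs8-/- libraries. All Bbs8-/- values were below all Bbs8+/+ values, and the Bbs8-/- values were the more spread out. The means were 215.6 ± 7.70 and 178.0 ± 17.0 CPM (SD, n = 4 each). The log2 fold change was -0.28 (SE 0.080, edgeR FDR 0.033). This call was close to the threshold. It was lost without Bbs8+/+ replicate 1 (FDR 0.11) or 2 (0.099) and without Bbs8-/- replicate 2 (0.11), 3 (0.057) or 4 (0.23) in edgeR, while the fold change stayed between -0.33 and -0.22. The ratio of Fbn2 to Fbn1 counts, which would show a shift between the fibrillins, was 0.390 to 0.415 in Bbs8+/+ and 0.320 to 0.410 in Bbs8-/- and overlapped.

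The LTBPs are built like fibrillins. LTBP4 promotes the deposition of elastin on microfibrils together with fibulin-5, and its loss in mice and people leaves elastic fibres fragmented. Ltbp4 (chromosome 7, 27305136 to 27337692, minus strand) was 78.5, 84.7, 72.5 and 73.8 CPM in Bbs8+/+ and 48.6, 55.4, 51.4 and 50.04 CPM in Bbs8-/- libraries. The groups were far apart compared with the spread within either. The means were 77.4 ± 5.51 and 51.4 ± 2.94 CPM (SD, n = 4 each), 33.5% lower, with a log2 fold change of -0.59 (SE 0.13, edgeR FDR 0.0010). It passed under all 18 alternatives.

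LTBP2 binds fibrillin microfibrils and, unlike other members of its family, does not bind latent TGF-beta. Its mutation weakens the ciliary zonule, which suspends the lens. Ltbp2 (chromosome 12, 84783212 to 84876532, minus strand) was 28.9, 20.1, 19.6 and 24.8 CPM in Bbs8+/+ and 10.3, 14.6, 13.8 and 14.5 CPM in Bbs8-/- libraries. The groups were apart, on 17 to 71 counts a library. The log2 fold change was -0.80 (SE 0.23, 95% interval -1.26 to -0.34, edgeR FDR 0.038), a mean 1.74-fold lower in Bbs8-/-. At this depth the call was fragile and was lost without Bbs8+/+ replicate 1 (FDR 0.17) or 4 (0.10) and without Bbs8-/- replicate 1 (0.15), 2 (0.057), 3 (0.086) or 4 (0.071) in edgeR, with fold changes of -0.87 to -0.69. The family members outside the list, Ltbp1 and Ltbp3, which bind latent TGF-beta, had log2 fold changes of -0.16 (edgeR FDR 0.64) and 0.030 (0.95). Within libraries, the ratio of Ltbp4 to Ltbp3 counts was 0.632 to 0.833 in Bbs8+/+ and 0.449 to 0.541 in Bbs8-/-, without overlap, while that of Ltbp2 to Ltbp1 overlapped.

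Emilin1, a glycoprotein at the border between elastin core and microfibrils that also restrains TGF-beta processing, lies on chromosome 5 (30913402 to 30921277, plus strand). It was 21.6, 20.5, 29.0 and 23.4 CPM in Bbs8+/+ and 10.3, 13.1, 14.2 and 18.2 CPM in Bbs8-/- libraries. The groups did not overlap, and the closest pair was Bbs8-/- replicate 4 and Bbs8+/+ replicate 2. Its log2 fold change of -0.74 (95% interval -1.19 to -0.28) did not pass (edgeR FDR 0.066), on 17 to 67 counts a library. It passed without Bbs8-/- replicate 4 (edgeR FDR 0.049).

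**Figure D2:**
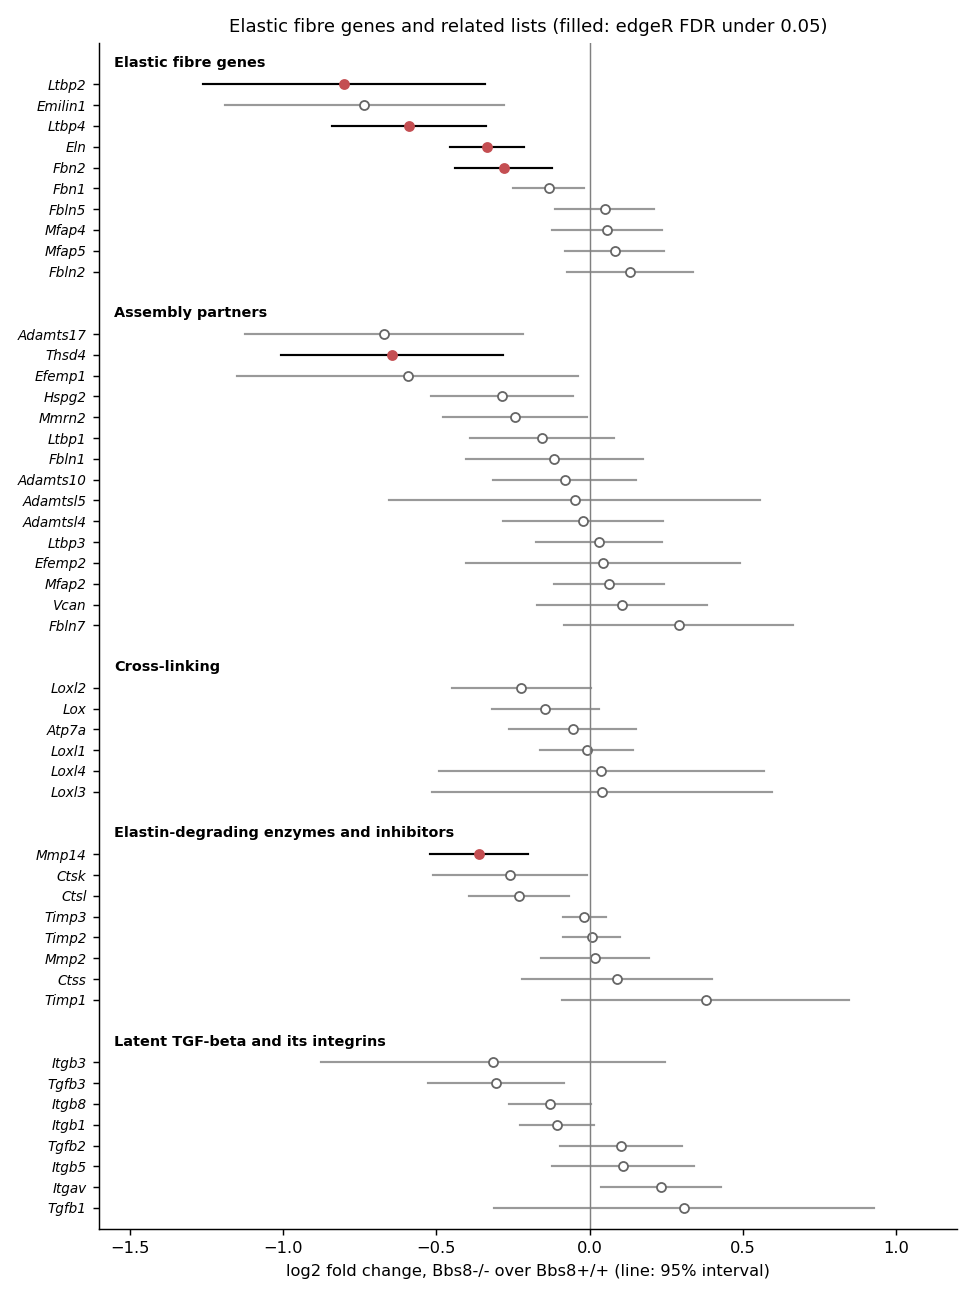
Log2 fold change of Bbs8-/- over Bbs8+/+ (horizontal axis) with its 95% interval for the 10 elastic fibre genes and for the tested genes of 4 related lists with a mean of at least 10 CPM. Filled points passed an edgeR FDR of 0.05: Ltbp2, Ltbp4, Eln and Fbn2 among the 10, and Thsd4 and Mmp14 outside them, all to the left of 0.

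The fibulins are calcium-binding glycoproteins that bridge elastin to microfibrils and to cells. Fbln5, needed for elastic fibre assembly in mice, was 167.0, 194.9, 174.5 and 187.8 CPM in Bbs8+/+ and 187.7, 205.0, 170.4 and 188.0 CPM in Bbs8-/- libraries. The groups were interleaved, with a log2 fold change of 0.049 (95% interval -0.11 to 0.21, edgeR FDR 0.87). Fbln2, which binds fibrillin and tropoelastin, was 130.8, 95.3, 130.5 and 85.3 CPM in Bbs8+/+ and 106.9, 120.8, 115.3 and 136.6 CPM in Bbs8-/- libraries. Its log2 fold change was 0.13 (95% interval -0.072 to 0.34, edgeR FDR 0.65). Bbs8+/+ libraries fell into a high and a low pair for Fbln2, and its coefficient of variation there, 21.4%, compares with a median of 8.79% for 583 genes of like level and 6.15% from counting alone.

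The MFAPs decorate microfibrils. Mfap5 was 194.2, 179.2, 173.1 and 172.7 CPM in Bbs8+/+ and 186.5, 210.8, 179.1 and 184.7 CPM in Bbs8-/- libraries, with a log2 fold change of 0.081 (95% interval -0.079 to 0.24, edgeR FDR 0.75). Mfap4, which binds tropoelastin and fibrillin, was 127.3, 136.3, 139.4 and 131.1 CPM in Bbs8+/+ and 137.9, 134.9, 129.5 and 152.9 CPM in Bbs8-/- libraries. The genotypes overlapped for both. The log2 fold change of Mfap4 was 0.057 (95% interval -0.12 to 0.24, edgeR FDR 0.86). The last 89 bases of Mfap4 (chromosome 11, 61488812 to 61488900) also belong to Mapk7 on the other strand. The strand setting of the counting is not given in the sources used here, so the Mfap4 value is uncertain.

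For Fbln5, Mfap4 and Mfap5 the 95% intervals exclude a fall as large as the 0.33 of Eln, their lower ends being -0.11, -0.12 and -0.079 on the log2 scale. Ratios of counts within a library, which need no scaling between libraries, show the same difference. Eln counts per Fbln5 count were 2.48 to 2.96 in Bbs8+/+ and 1.98 to 2.20 in Bbs8-/-. Per Mfap5 count they were 2.55 to 2.94 and 1.93 to 2.14, and per Mfap4 count 3.40 to 3.89 and 2.59 to 3.01. Elastin was thus lower relative to each of these partners, without overlap, and also relative to Fbn1, at 0.863 to 0.958 and 0.782 to 0.796. Eln per Ltbp4 count went the other way, from 5.71 to 6.87 in Bbs8+/+ to 7.28 to 7.92 in Bbs8-/-. Ltbp4 per Fbln5 count was 0.393 to 0.470 and 0.259 to 0.302.

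No library of either genotype stood low or high throughout the list. Among Bbs8+/+ libraries replicate 1 was the highest for 5 of the 10 genes and replicate 3 the lowest for 5. Among Bbs8-/- libraries replicate 2 was the highest for 6 genes and replicate 3 the lowest for 5.

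Genes that act beside the 10 were read from 4 lists. Of 20 assembly partners (other fibulins, LTBPs, emilins, multimerins, ADAMTS and ADAMTSL proteins and matrix binders) 1 was lower and 0 were higher, beside 1.14% and 1.10% of all tested genes, with a median log2 fold change of -0.035. At an unadjusted p under 0.05 there were 5 of the 20, all lower, beside 13.0% of all tested genes in either direction. Thsd4, an ADAMTS-like protein that promotes the assembly of fibrillin-1 into microfibrils, was 38.4, 38.2, 28.5 and 41.6 CPM in Bbs8+/+ and 23.7, 28.2, 18.8 and 23.9 CPM in Bbs8-/- libraries. These did not overlap, although Bbs8+/+ replicate 3 came close, and the log2 fold change was -0.64 (SE 0.18, edgeR FDR 0.032). The call was lost in edgeR without Bbs8+/+ replicate 1 (FDR 0.072), 2 (0.094) or 4 (0.14), without Bbs8-/- replicate 1 (0.074), 3 (0.17) or 4 (0.084), and with DESeq2 (adjusted p 0.073).

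Cross-linking enzymes and their copper supply showed 0 lower and 0 higher of 6 tested by edgeR, with 0 at an unadjusted p under 0.05 and 0 by DESeq2, and a median log2 fold change of -0.033. Over all tested genes 1.14% were lower, 1.10% higher and 13.0% at an unadjusted p under 0.05, so a count of 0 of 6 is near the background. The 3 with the highest mean CPM were the elastin cross-linker Loxl1, with a log2 fold change of -0.0097 (95% interval -0.16 to 0.14), the lysyl oxidase Lox, at -0.14 (-0.32 to 0.030), and the copper pump Atp7a, at -0.055 (-0.26 to 0.15). Eln counts per Loxl1 count were 1.93 to 2.45 in Bbs8+/+ and 1.49 to 1.92 in Bbs8-/-, without overlap. Elastin was thus lower relative to this cross-linker too, while Eln per Lox overlapped.

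Of the elastin-degrading enzymes and their inhibitors 8 of 10 could be tested, Mmp9 and Mmp12 being below the minimum level, and 1 was lower and 0 were higher, beside 1.14% and 1.10% of all tested genes, with a median log2 fold change of -0.0055. At an unadjusted p under 0.05 there were 3 of the 8, all lower, beside 13.0% of all tested genes in either direction. Mmp14, a membrane-bound protease that cleaves collagen and activates Mmp2, was 211.0, 237.9, 197.9 and 207.0 CPM in Bbs8+/+ and 158.5, 184.6, 161.7 and 160.9 CPM in Bbs8-/- libraries. The groups did not overlap, and the log2 fold change was -0.36 (SE 0.081, edgeR FDR 0.0021). Without Bbs8+/+ replicate 2 it missed the threshold (edgeR FDR 0.053), and without Bbs8-/- replicate 3 the cathepsin Ctsl also passed (edgeR FDR 0.044).

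Latent TGF-beta and the integrins that release it showed 0 lower and 0 higher of 11 by edgeR, beside 1.14% and 1.10% of all tested genes, and 0 by DESeq2, with a median log2 fold change of 0.10. At an unadjusted p under 0.05 there were 2 of the 11, near the 13.0% of all tested genes: the ligand gene Tgfb3, with a log2 fold change of -0.31 (edgeR FDR 0.16), and the integrin subunit gene Itgav. The 3 with the highest mean CPM were the integrin subunits Itgb1, with a log2 fold change of -0.11 (95% interval -0.23 to 0.015), Itgb8, at -0.13 (-0.26 to 0.0060), and Itgav, at 0.23 (0.038 to 0.43, edgeR FDR 0.26).

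Cells of the eyecup known to make elastic fibre proteins include fibroblasts, smooth muscle and endothelium, and their markers were summed in each library. Fibroblast markers fell from 35374 to 37150 summed CPM in Bbs8+/+ to 28013 to 29151 in Bbs8-/- libraries (two-sided exact permutation p = 0.0286, the smallest that 4 against 4 libraries can give), with 4 of 10 lower, 0 higher and 0 at 0 in every library. Over all tested genes, 1.14% were lower and 1.10% higher, which also stands beside the counts of the lists that follow. The 4 lower genes were the collagens of the list, Col1a1, Col1a2, Col3a1 and Col5a1, whose sum had a log2 ratio of -0.47, beside the log2 fold change of -0.33 of Eln. The other 6, Dcn, Lum, Fmod, Ogn, Pdgfra and Pcolce, summed to 6881 to 7283 CPM in Bbs8+/+ and 7328 to 7731 CPM in Bbs8-/-. This division of the list was made after its values were seen, so it is a description. Dcn, a proteoglycan of collagen fibrils, made up most of the second sum, at 5894 ± 151 and 6261 ± 122 CPM (SD, n = 4 each), and none of the 6 passed the threshold. Their log2 fold changes were 0.087 for Dcn, 0.17 for Pcolce, 0.12 for Lum, 0.015 for Fmod, -0.093 for Ogn and -0.25 for Pdgfra. Smooth muscle and pericyte markers summed to 1354 to 1390 and 1183 to 1275 CPM (exact permutation p = 0.0286), with 2 of 10 lower, the pericyte genes Rgs5 and Notch3. Rgs5 took up most of the difference, at 715.4 ± 27.3 and 599.1 ± 19.97 CPM (SD, n = 4 each). Of all 10 genes 6 had log2 fold changes below 0 and 4 above. The log2 fold changes of Rgs5 and Notch3 were -0.26 and -0.65. Those of the pericyte genes Pdgfrb and Cspg4 were -0.35 and -0.33, and these did not pass (edgeR FDR 0.19 and 0.36). The other genes of the list did not pass either and lay on both sides of 0. Their log2 fold changes were 0.50 for Des, 0.19 for Tagln, 0.10 for Acta2, 0.055 for Lmod1, -0.073 for Myh11 and -0.51 for Cnn1. Endothelial markers summed to 868.7 to 903.8 and 819.9 to 902.1 CPM (exact permutation p = 0.34), with 0 of 10 at 0 in every library for either list. Of the 10 endothelial genes 0 passed, with 5 log2 fold changes below 0 and 5 above. At an unadjusted edgeR p under 0.05 there were 4, all lower, beside 13.0% of all tested genes in either direction. These were Flt1, Tie1, Cdh5 and Sox17, at -0.25, -0.32, -0.31 and -0.79. Kdr, the largest part of the sum, was at 0.12. Choroid melanocyte and pigment markers summed to 13998 to 14684 and 11609 to 12179 CPM, with 5 of 8 lower. Most of this sum was Dct, with means of 10378 and 8736 CPM. The 5 were Mlana, Ednrb, Dct, Tyrp1 and Pmel. Kit, Sox10 and Tyr did not pass, with log2 fold changes of -0.028, -0.055 and 0.016. The exact permutation p of 0.0286 does not set the fibroblast or the smooth muscle and pericyte list apart. The RPE, choroid melanocyte and pigment, photoreceptor, lens, chondrocyte and surface epithelium sums gave the same p, in either direction. All lists were chosen with earlier results of these data known. The part of these lists in the elastic fibre values was not tested.

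**Figure D3:**
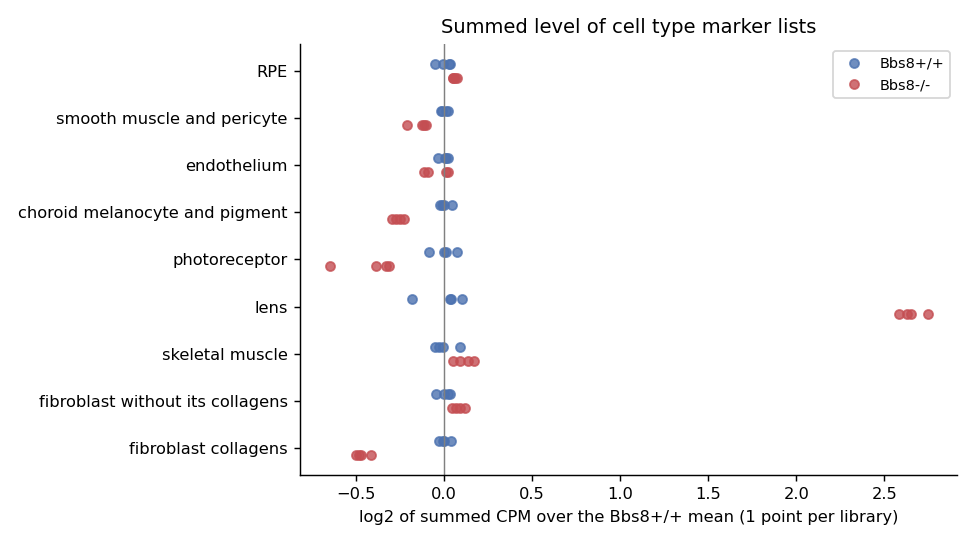
Summed level of cell type marker lists in each library, as log2 of the value over the Bbs8+/+ mean of the list (horizontal axis), with 1 point per library. The collagens of the fibroblast list lie below 0 in Bbs8-/- (20543 to 21823 against 28493 to 29867 CPM) and its other genes slightly above 0, and lens markers lie far above 0 in Bbs8-/-.

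Set against the fibroblast list the picture of the elastic fibre genes depended on the collagens. Per 1000 counts of the whole list, of which Col1a1, Col1a2 and Col3a1 gave 72.6% to 80.1%, Eln was 13.3 to 13.6 in Bbs8+/+ and 13.2 to 14.1 in Bbs8-/-, overlapping. The sum of this list was itself lower, with a log2 ratio of -0.34, so any gene is moved up by that much here, and 25.5% of all tested genes were higher and 0.398% lower without overlap on this scale. Fbn2 and Emilin1 overlapped too, Emilin1 at a log2 ratio of -0.42. Ltbp2 and Ltbp4 were still lower without overlap, with log2 ratios of the group means of -0.47 and -0.25, at 0.554 to 0.797 and 0.369 to 0.510 for Ltbp2 and 1.99 to 2.34 and 1.72 to 1.93 for Ltbp4. Fbn1, Fbln2, Fbln5, Mfap4 and Mfap5 were higher without overlap on this scale.

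Per 1000 counts of the 6 fibroblast markers that are not collagens, 6 members were lower without overlap and 0 higher, beside 6.41% and 1.72% of all tested genes. This sum was itself higher in Bbs8-/-, with a log2 ratio of 0.079. Eln was 67.0 to 69.6 in Bbs8+/+ and 49.5 to 54.1 in Bbs8-/-, Ltbp4 10.1 to 11.7 and 6.505 to 7.17, and Fbn1 72.7 to 80.2 and 63.2 to 67.9. The others were Fbn2, Ltbp2 and Emilin1. Fbln2, Fbln5, Mfap4 and Mfap5 overlapped, with log2 ratios of the group means of 0.035, -0.026, -0.022 and 0.0015. Per endothelial count 4 members were lower and 0 higher without overlap, beside 2.35% and 4.39% of all tested genes. Per smooth muscle and pericyte count, whose sum had a log2 ratio of -0.14, 4 were lower and 3 higher without overlap, beside 1.27% and 9.72%. Ltbp2 and Ltbp4 were the members that were lower without overlap on all 5 scales. Emilin1 was lower on all 5 by its group means, with overlap per fibroblast list count.

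Single collagens differed as partners of elastin. Eln per Col1a1 count overlapped between genotypes, Eln per Col1a2 count was higher in Bbs8-/- (0.0370 to 0.0394, against 0.0318 to 0.0331 in Bbs8+/+), and Eln per Col3a1 count was lower (0.2000 to 0.218, against 0.220 to 0.236 in Bbs8+/+).

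**Figure D4:**
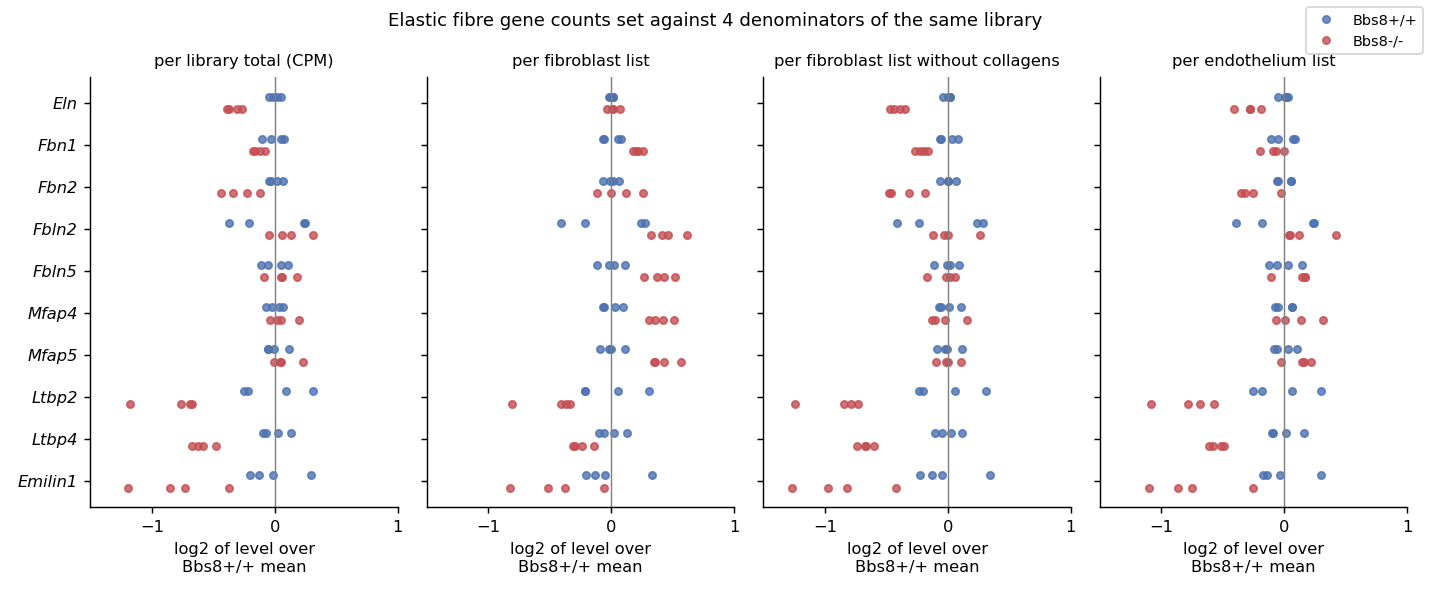
Elastic fibre genes against 4 denominators of the same library, as log2 of each library's value over the Bbs8+/+ mean (horizontal axes), with 1 point per library. Per library total and per non-collagen fibroblast count Eln is lower in Bbs8-/-, per whole fibroblast list it overlaps, and Ltbp2 and Ltbp4 are lower in all 4 panels.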

How the data were processed

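RNA of 8 eyecup preparations was sequenced with the QuantSeq 3′ mRNA kit, single-end. The authors trimmed the reads with BBDuk, aligned them with STAR to mm10 and used htseq-count to count reads in genes, and the deposited values are raw counts of uniquely aligned reads. Reads outside genes and ambiguous reads (0.309% to 0.323% of unique alignments) stayed out of library sizes and tests. Each file held 31053 gene identifiers, of which 31011 matched GENCODE M21 and 42 did not. The study's methods call each animal a biological replicate, but Xist and Y-linked transcripts in all 8 libraries leave unclear whether each library holds 1 animal.

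The fit was a quasi-likelihood model in edgeR 4.0.16 (R 4.3.3) with TMM factors and a single term for genotype, on genes reaching 1 CPM in 4 or more libraries, with two-sided p-values adjusted by Benjamini-Hochberg over 13813 genes. The script was tested on simulated data. CPM values are TMM-normalized. Since 3′ tags do not scale with transcript length, CPM does not rank the abundance of different genes here. It served to choose which genes to name or plot, to sum lists within a library and to find genes of like level. Marker list sums were compared by a two-sided exact permutation test. All 10 members and Ttc8 are named. Of each related list the genes named are those past FDR 0.05, otherwise the 3 with the highest mean CPM, and Ltbp1, Ltbp3, Ctsl and Tgfb3 were added after their values were seen. Members and lists were chosen with earlier results of these data known. Alternatives were RLE size factors, total counts, other filters, a likelihood ratio test, DESeq2 1.42.0, an FDR of 0.01, a replicate block, thinning to the smallest library, leaving out Gm42418 and mitochondrial genes, and leaving out each library. Intervals of fold changes come from the edgeR fit and include the spread between libraries, while floors and counting spreads cover counting error only. The sources used here name no molecular identifiers.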

Additional observations from a re-analysis of the deposited data

Results flagged for a closer look

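Of the 50 groups of 4 libraries that were checked for a library far from the others, 1 stood out, and chance alone would give about 2.5. Mmp14, the membrane-bound matrix protease, was 184.6 CPM in Bbs8-/- replicate 2 and 158.5 to 161.7 CPM in the other Bbs8-/- libraries. All 4 values were below the lowest Bbs8+/+ value, 197.9 CPM. Bbs8-/- replicate 2 was also the highest Bbs8-/- library for 6 of the 10 elastic fibre genes. Without it the log2 fold change of Mmp14 was -0.41 (edgeR FDR 0.0011).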

How the results depend on the processing

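The number of elastic fibre genes that were lower was 2 at an FDR of 0.01, 2 with a replicate block and 2 after thinning to the smallest library, and 2 to 4 when 1 library was left out. It was 2 without Bbs8+/+ replicate 1 and without Bbs8-/- replicates 2 or 3. Eln and Ltbp4 passed in all 18 alternative fits, and 0 members were higher in any of them. The median log2 fold change of the list stayed between -0.23 and -0.18. The lower assembly partners numbered 0 with DESeq2, 0 at an FDR of 0.01 and 0 after thinning, and 0 to 1 when 1 library was left out. The lower elastin-degrading enzymes and inhibitors numbered 0 to 2 when 1 library was left out. Per fibroblast list count the log2 ratios of Eln and Fbn2 were 0.012 and 0.069, the opposite direction, with overlapping genotypes, on a scale whose list sum had itself a log2 ratio of -0.34. Between libraries of the same replicate number, deviations from the group means correlated at 0.019, 0.0034, -0.050 and -0.056 over 6628 genes. These deviations include counting error, so they cannot settle whether such libraries are paired. With the replicate block Fbn2 and Ltbp2 missed the threshold (edgeR FDR 0.051 and 0.056), and 129 genes were lower and 134 higher, against 157 and 152 without it. DESeq2 called 118 lower and 130 higher, and its adjusted p for Ltbp2 was 0.076. What causes these shifts was not tested. Ltbp2 and Emilin1 rest on 17 to 71 and 17 to 67 counts a library, where counting alone gives a spread of at least 13.3% of the mean.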
